A study of Arabidopsis thaliana with 64 samples.

Results

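The probe sets described here are those with the strongest gain of signal in Arabidopsis roots given abscisic acid (ABA). They were chosen from the arrays themselves: a probe set was taken when its mean log2(intensity + 1) over the 32 arrays with ABA exceeded that over the 32 arrays without ABA by at least 3, and when the group means with ABA were higher in all 16 combinations of the other signals. Of 22746 probe sets, 86 met the rule. The probe sets of 8 genes were then left out by name (AT3G02480, LEA4-5, LEA18, AT2G21820, COR15A, COR47, AT2G38905 and AT2G15960), which left 78 members. Of these, 35 carry the name of 1 gene, 2 match several genes, and 41 have no gene in the annotation used here and are given by their probe set number.

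RNA of whole roots from seedlings was measured on 64 Affymetrix ATH1 arrays, 1 per sample. The medium held or lacked each of 5 signals for 4 h, in every combination, which gave 32 groups of 2 arrays. ABA was used at 1 µM, kinetin at 500 nM, indole-acetic acid (IAA) at 500 nM, and nitrate and ammonium at 1 mM when given singly or 0.5 mM each when given together. All plants, mock groups included, had grown hydroponically on ammonium succinate and had spent a day on nitrogen-free medium, and mock media held KCl and DMSO. The labels do not say that the 2 arrays of a group came from separate cultures, so the p-values below reflect the spread of these arrays alone, and that spread may be technical. In whole-root RNA, fewer cells of a type and less RNA per cell cannot be told apart.

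ABA is the hormone that plants accumulate in drying soil, in salt and in maturing seeds. It binds receptors of the PYR/PYL family, which then hold back clade A phosphatases and so free SnRK2 kinases to activate bZIP factors that bind ABA-responsive promoters. Among the classical targets are late embryogenesis abundant (LEA) proteins, hydrophilic proteins that protect membranes and other proteins during water loss. Lipid-transfer proteins, sugar transporters and regulators that damp the ABA signal are also known targets.

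The members separated the arrays by ABA in every medium. The median over the 78 members was between 10.17 and 11.03 on the log2 scale on the arrays with ABA (median 10.69), against 6.43 to 7.54 on the arrays without ABA (median 6.93). The 2 ranges did not overlap. The ABA difference, the mean with ABA minus the mean without, had a median of 3.90 over the members, or 14.9-fold, and ran from 3.02 to 7.96. Over all probe sets its median was -0.19. Because this difference chose the members, it is given as a description with no test. In the fit to all arrays, 8.48% of all probe sets were higher with ABA and 18.8% were lower at an adjusted p under 0.05.

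**Figure D1:**
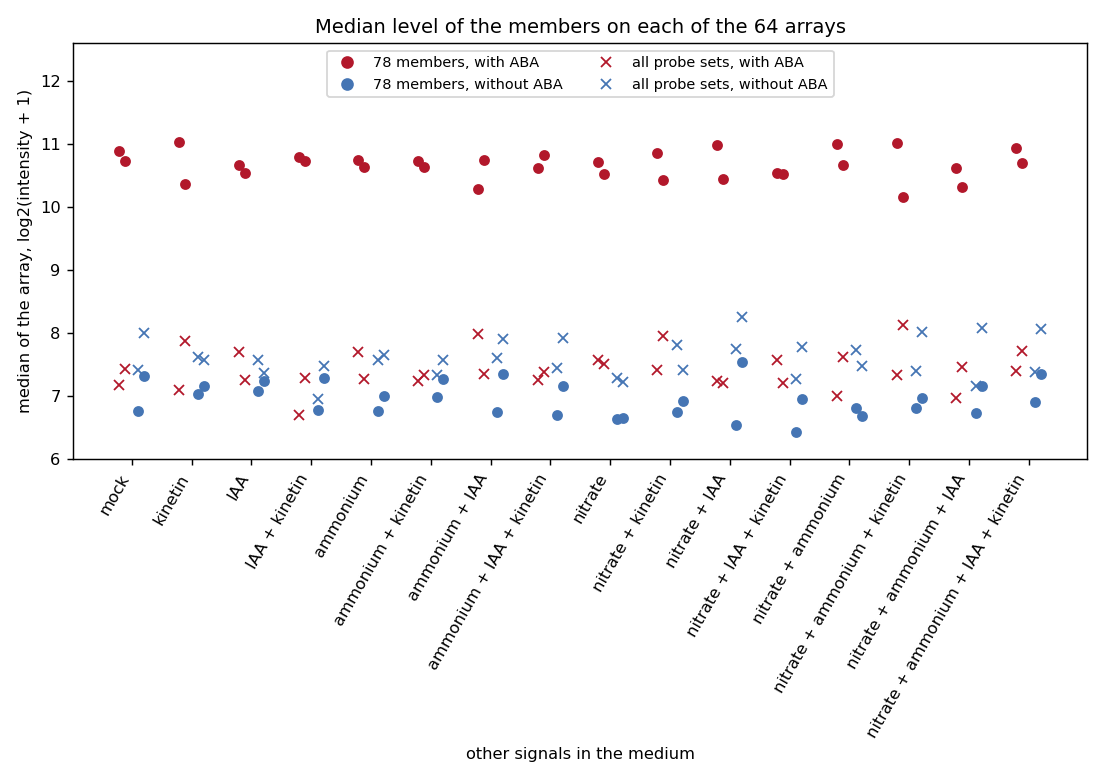
The median of the 78 members (circles) and of all probe sets (crosses) is plotted for each array as log2(intensity + 1), by the other signals in the medium, with ABA in red and without ABA in blue. Every red circle lies at 10.17 or above and every blue circle at 7.54 or below.

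For 50 of the 78 members the lowest of the 32 arrays with ABA lay above the highest of the 32 arrays without it, which held for 0.448% of all probe sets. The same arrays chose the members, so the rule itself favoured such a separation. This count, and the separations of single genes given below, are descriptions with no test. The ABA difference was at least 5 for 17 members and under 3.5 for 25. Without ABA, 40 members had a mean below the lowest array median, an intensity of 103. With ABA, 0 members did. The fold changes of dim members depend on the pseudocount of 1, and with a pseudocount of 64 the rule would take 46 probe sets in place of 78. The spread over the 32 arrays was smaller with ABA than without it for 64 of 78 members, with a median SD of 0.68 with ABA and 1.01 without ABA on the log2 scale. Among the 40 members that were dim without ABA the median SD was 0.72 with ABA and 1.21 without ABA, and among the other 38 it was 0.64 with ABA and 0.80 without ABA. Over all probe sets the median SD was 0.89 with ABA and 0.88 without ABA.

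Among the 78 members, the greatest ABA difference belonged to the unnamed probe set 263385_at. Its intensities ran from 1296 to 8893 (median 4196) with ABA and from 4.85 to 145 (median 14.2) without ABA. AT4G31830 followed among the members, with 1143 to 6831 (median 2866) with ABA and 4.74 to 35.1 (median 10.2) without ABA, a difference of 7.81 ± 0.17 (SE). AT1G16850 gave 1526 to 26915 (median 9988) with ABA and 13.8 to 303 (median 42.0) without ABA, a difference of 7.40 ± 0.24. None of these ranges met. With a pseudocount of 64 the differences of AT4G31830 and AT1G16850 were 5.26 and 6.16. AT5G66780 differed by 6.16 ± 0.33, AT3G51750 by 6.11 ± 0.17 and AT4G12580 by 5.73 ± 0.21. For AT3G51750 every array with ABA was at 10203 or above, and the highest array without ABA stood at 623. The proteins of these genes have no role given here. They belong to 13 named members of that kind, whose differences ran from 3.09 (AT1G68500) to 7.81.

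The 2 arrays with ABA alone can be set beside the 2 mock arrays for the same genes. AT4G31830 had 2736 and 3657 with ABA alone, against 4.74 and 9.18 in the mock group. AT1G16850 had 15790 and 14186 with ABA alone, against 34.9 and 21.2 in the mock group. For both genes the arrays with ABA alone lay far above the mock arrays. The rule had asked for a positive difference here too, so these values are a description with no test.

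**Figure D2:**
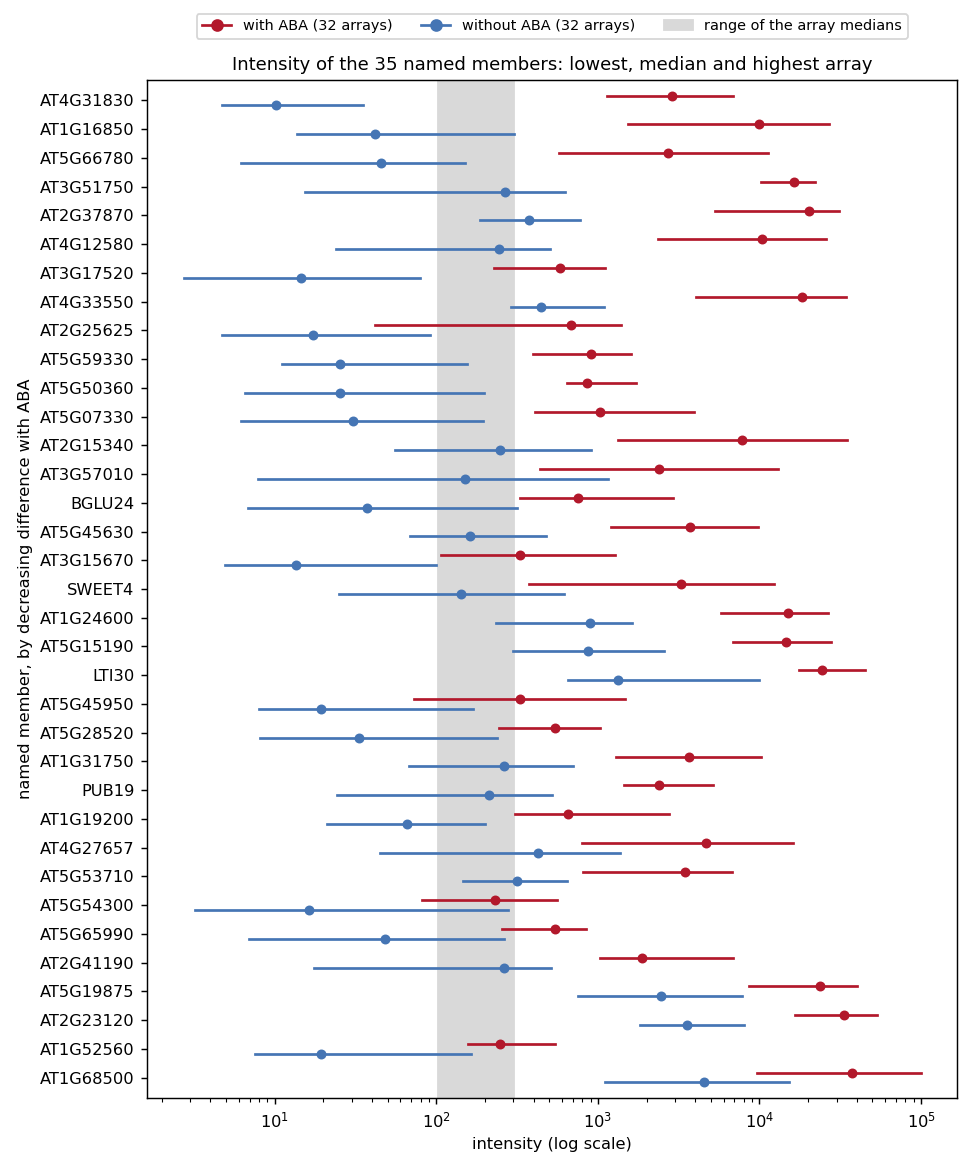
For each of the 35 named members a line joins the lowest and the highest array and a point marks the median, with ABA in red above and without ABA in blue below, on a log scale of intensity. The grey band is the range of the 64 array medians, 103 to 303, and levels of different genes cannot be compared, since probe sets differ in brightness. Most blue medians lie in or left of the band, as for AT3G17520 at 14.6, while red medians lie in it or to its right.

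The LEA proteins gave 4 members beside the 5 LEA genes that had been left out by name. AT3G17520, a LEA protein, had 227 to 1100 (median 580) with ABA and 2.74 to 79.2 (median 14.6) without ABA, a difference of 5.21 ± 0.20. AT3G15670, another LEA protein, had 108 to 1268 (median 328) with ABA and 4.95 to 99.4 (median 13.6) without ABA, a difference of 4.31 ± 0.21. LTI30, a dehydrin that binds membranes and is also induced by cold, had 17438 to 44844 (median 24310) with ABA and 651 to 9919 (median 1337) without ABA, a difference of 3.99 ± 0.13. AT2G23120 had 16546 to 53080 (median 33216) with ABA and 1827 to 7971 (median 3550) without ABA, a difference of 3.13 ± 0.16. In all 4 genes the groups did not overlap, although the lowest array of AT3G15670 with ABA stood close to its highest without ABA. The LEA list of 51 genes had 35 named on the array. Of these 35, 16 were higher with ABA and 1 was lower in the limma fit, against 8.48% and 18.8% of all probe sets. That count includes the genes chosen for their difference, while the other 26 all had a difference under 3. The 26 included 7 that were higher with ABA, 1 that was lower (AT1G54410, at -0.53) and 18 that did not pass. The median difference of the 26 was 0.33. Of these 26, 17 had a mean under the lowest array median.

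The lipid-transfer-like genes gave 3 members. These small cysteine-rich proteins carry lipids to the cell surface, where cutin and suberin are laid down. AT2G37870 had 5323 to 31187 (median 20335) with ABA and 186 to 772 (median 372) without ABA, a difference of 5.79 ± 0.13. AT4G33550 had 4072 to 34166 (median 18243) with ABA and 291 to 1098 (median 443) without ABA, a difference of 5.14 ± 0.10. AT5G59330 had 399 to 1608 (median 909) with ABA and 11.1 to 154 (median 25.4) without ABA, a difference of 4.93 ± 0.17. All 3 kept the arrays apart.

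The transporters also gave 3 members. SWEET4, a membrane channel for hexose sugars, had 373 to 12277 (median 3273) with ABA and 25.0 to 613 (median 142) without ABA, a difference of 4.19 ± 0.20. Its groups overlapped. AT5G65990 and AT2G41190, of the amino acid transporter family, differed by 3.35 ± 0.25 and 3.22 ± 0.20. AT2G41190 kept the arrays apart, with 1031 to 6860 with ABA and 17.5 to 511 without ABA, and the lowest array of AT5G65990 with ABA (254) lay just under its highest without ABA (261).

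Among regulators were PUB19, a U-box ubiquitin ligase that dampens ABA and drought responses, AT5G50360, of a family of ABA-induced repressors, and AT1G19200, an FCS-like zinc finger protein. PUB19 had 1447 to 5168 (median 2398) with ABA and 24.4 to 519 (median 212) without ABA, a difference of 3.65 ± 0.21. AT5G50360 had 640 to 1722 (median 862) with ABA and 6.55 to 198 (median 25.4) without ABA, a difference of 4.82 ± 0.22. AT1G19200 differed by 3.52 ± 0.24. The arrays did not overlap for any of the 3.

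The enzymes were AT3G57010, a strictosidine synthase-like protein, BGLU24, a beta-glucosidase, and AT5G45950, a GDSL-type lipase or esterase. AT3G57010 had 439 to 12944 (median 2400) with ABA and 7.92 to 1147 (median 150) without ABA, and its groups overlapped. BGLU24 had 328 to 2917 (median 756) with ABA and 6.86 to 315 (median 37.1) without ABA, a difference of 4.47 ± 0.29. AT5G28520, a jacalin-like lectin, is its neighbour on the chromosome in the RefSeq gene table and differed by 3.86 ± 0.19. No other pair of named members lay side by side there. Further members were AT2G25625, a protein that takes part in the breakdown of chloroplasts under stress (5.12 ± 0.24), the small heat shock protein AT1G52560 (3.09 ± 0.24), the glycine-rich protein AT2G15340 (4.69 ± 0.27), AT5G45630 of the senescence regulator family (4.36 ± 0.18) and the proline-rich AT1G31750 (3.75 ± 0.20). The lowest array of AT2G25625 with ABA (41.9) fell below its highest without ABA (91.1).

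Little of the upstream pathway can be read from the named probe sets. The ABA receptors (14 genes listed), clade A phosphatases (9), SnRK2 kinases (10) and AFP repressors (4) had 0 named on the array here. Of the 11 listed ABF and ABI factors 1 was named, the bZIP factor EEL, with a difference of -0.31 ± 0.27 (limma adjusted p = 0.429). Of 12 genes of ABA synthesis and breakdown 1 was named, the ABA glucosyltransferase UGT71B6, at 0.18 ± 0.28 (adjusted p = 0.681). Of 26 other ABA and stress genes 1 was named, the aldehyde dehydrogenase ALDH7B4, which rose by 1.60 ± 0.10 (adjusted p = 5.43e-16). Of 12 oil-body and seed genes 2 were named, OLEO3 at 0.12 ± 0.13 and AT3G01570 at -0.34 ± 0.25, and neither passed. None of these genes is a member.

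The root label was checked with root genes, mainly of root hairs, of which 3 of 16 were named. EXPA7 had a median intensity of 527 with ABA and 774 without ABA, GH9C1 had 372 with ABA and 456 without ABA, and EXPA18 had 579 with ABA and 758 without ABA. All 3 were lower with ABA in the fit, with differences of -0.51, -0.42 and -0.47. Of all probe sets 18.8% were lower, and the median difference of all was -0.19. Of 20 green tissue genes 3 were named. LHCB4.1, which encodes an antenna protein of photosystem II, rose by 0.84 ± 0.25 (limma adjusted p = 0.00906), with a median of 211 with ABA and 128 without ABA. RCA stood at -0.05 ± 0.17 and LHCB4.2 at -0.69 ± 0.31, and neither passed. LHCB4.2 had a median of 21.9 with ABA and 50.5 without ABA. RCA had 345 with ABA and 349 without ABA, above all array medians (103 to 303). These levels do not settle whether the samples held root tissue only. The part of these cell types in the members' differences was not tested. The array median was lower with ABA by 0.18 on the log2 scale, 7.42 ± 0.31 with ABA and 7.60 ± 0.30 without ABA (SD, n = 32 each). A two-sided permutation test gave p = 0.0221, with an adjusted p = 0.199 over 18 comparisons of array quality. The part of this shift in the members' differences was not tested.

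At the border of the rule, the lowest named members were AT2G23120 (3.13), AT1G52560 (3.09) and AT1G68500 (3.09). Just under it were the LEA gene AT2G23110 (3.00 after rounding), AT5G61820 (2.98) and AT1G53560 (2.97). All 3 of these also had positive differences in 16 of 16 combinations. From 3 to 3.25 lay 15 members, and from 2.75 to 3 lay 20 probe sets. The values ran on across the threshold without a gap.

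The measured ABA difference varied across media, by amounts that differed between members. Each combination compares 2 arrays with 2, and how much of this variation is spread of the arrays was not tested. The rule asked only for a positive difference in each of the 16 combinations, and 57 members had at least 2 in every one of them, while 6 had under 1 in some combination. The range over the 16 combinations had a median of 2.95 and ran from 1.15 to 6.50. It had a median of 3.55 for the 40 members that were dim without ABA and 2.40 for the other 38. The median difference over members was lowest in ammonium + IAA medium (3.62) and highest in nitrate medium (4.63). In nitrate medium the median of all probe sets was also at its highest, 0.21, against -0.10 in ammonium + IAA medium. The median of all probe sets was lowest in nitrate + IAA medium (-0.67), where that of the members was 4.15. Each of these values rests on 2 arrays against 2. LTI30 ranged from 2.54 (nitrate + ammonium + IAA) to 5.01 (kinetin) and AT1G24600 from 3.52 (kinetin) to 4.67 (nitrate + kinetin). SWEET4 ranged much further, from 1.05 in ammonium + IAA medium to 6.47 in kinetin medium, and the unnamed 260040_at from 0.89 in ammonium + IAA medium to 7.39 in nitrate + kinetin medium.

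**Figure D3:**
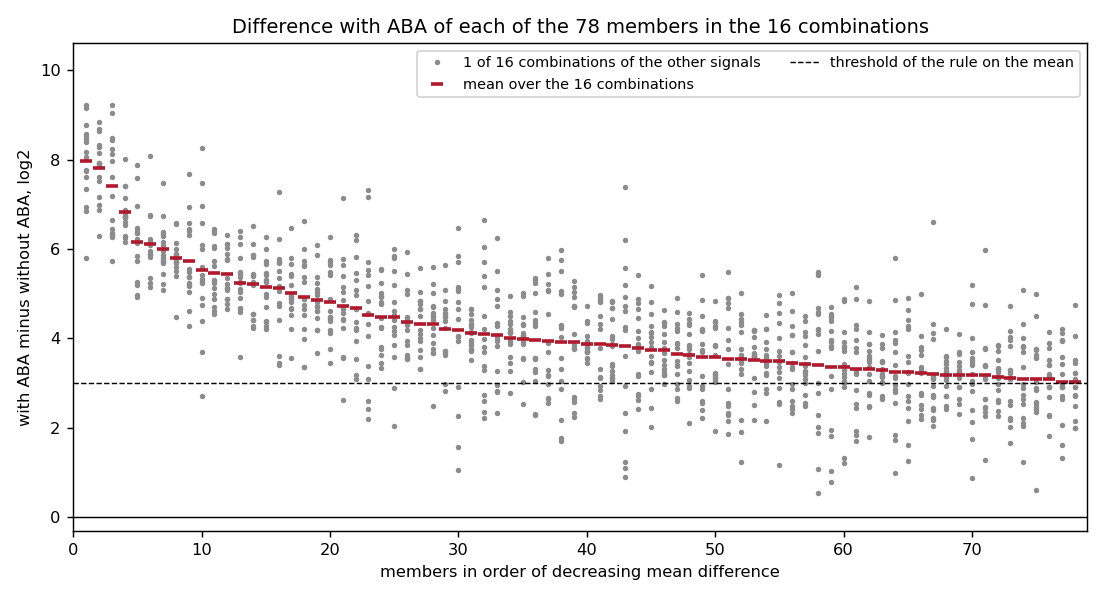
Each column is 1 of the 78 members in order of decreasing mean ABA difference, each grey point its difference (log2, with ABA minus without ABA) in 1 of the 16 combinations of the other signals, and each red bar the mean. All points lie above 0, as the rule required, and the red bars run from 7.96 at the left to 3.02 at the right.

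The other 4 signals were then tested on the members. The rule did not use their effects, but it did use the sign of the ABA difference in each combination. Differences between a signal's effects with and without ABA are built from those ABA differences, so these tests are not independent of the rule. Each signal was compared over 8 groups with it and 8 without it, 16 arrays against 16, separately among the arrays with ABA and those without ABA. The fit ran over all 22746 probe sets with limma, and p-values were adjusted over all of them. In 12 comparisons, 4 signals with ABA, without ABA and as the difference between the 2, 19 of the 78 members passed at least once, as did 4.08% of all probe sets. Adding the effects averaged over both, which were chosen after seeing the data, 21 members passed in at least 1 of 16 comparisons and 57 in none, where 5.79% of all probe sets passed at least once. Where the medium already held nitrate, adding ammonium lowered that nitrate to 0.5 mM, and the same held for ammonium when nitrate was added. The effects of both ions include this change of dose.

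Kinetin, a cytokinin, changed 6 of 78 members among the arrays with ABA, where 1.08% of all probe sets passed. SWEET4 had 928 to 12277 (median 4841) with kinetin and 373 to 6343 (median 1571) without kinetin, both with ABA, and rose by 1.61 ± 0.29 (limma adjusted p = 0.000518). AT5G45950 had 292 to 1469 (median 657) with kinetin and 73.2 to 457 (median 227) without kinetin, and rose by 1.57 ± 0.30 (adjusted p = 0.00135). AT5G54300 rose by 1.29 ± 0.33 (adjusted p = 0.0428), but did not pass with quantile normalization (1.19, adjusted p = 0.0727) or with the actin ratio described below as a covariate (1.25, adjusted p = 0.101), and leaving out 1 array ended its call for 31 of the 64 arrays. The unnamed 260040_at rose by 1.75 ± 0.37 (adjusted p = 0.00607). AT4G33550, the lipid-transfer-like gene, changed in the opposite direction. It had 4072 to 20271 (median 10456) with kinetin and 12413 to 34166 (median 26031) without kinetin, and fell by 1.21 on the log2 scale (SE 0.14, adjusted p = 3.63e-07). The unnamed 262113_at fell by 1.13 on the log2 scale (adjusted p = 0.012), a call that ended once the 3 arrays of lowest and the 3 of highest median were left out (-0.89, adjusted p = 0.129). These 6 are called the extreme arrays below. The ranges with and without kinetin overlapped in each of the 3 genes with ranges given here, SWEET4, AT5G45950 and AT4G33550.

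Among the arrays without ABA, kinetin changed 5 of 78 members, where 0.954% of all probe sets passed. AT3G57010, the strictosidine synthase-like gene, had 13.6 to 1147 (median 417) with kinetin and 7.92 to 226 (median 30.5) without kinetin, and rose by 3.10 ± 0.45 (limma adjusted p = 2.14e-05). Its level without kinetin was dim, and with a pseudocount of 64 the effect was 1.89. With ABA in the medium its kinetin effect was 1.08 ± 0.45 (adjusted p = 0.456), and the difference between the effects, -2.02 ± 0.63, did not pass (adjusted p = 0.748). The unnamed 257288_at rose by 2.64 ± 0.37 (adjusted p = 1.21e-05), with 6.64 to 274 (median 91.9) with kinetin and 3.93 to 156 (median 8.76) without kinetin. Both groups were dim, and with a pseudocount of 64 its effect was 0.94. AT5G19875 fell by 0.86 on the log2 scale (adjusted p = 0.0217), and its call was lost without the extreme arrays (-0.69, adjusted p = 0.09). The unnamed 259705_at and 246481_s_at rose by 1.35 and 0.97, and neither passed without the extreme arrays (1.24 and 0.90, adjusted p = 0.174 and 0.0579). The effect of 259705_at was 1.26 in the fit with the actin ratio (adjusted p = 0.0749) and 0.71 with a pseudocount of 64. Leaving out 1 array ended the calls of 246481_s_at, 259705_at and AT5G19875 for 22, 16 and 7 of the 64 arrays.

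Averaged over arrays with and without ABA, kinetin changed 7 members, where 2.07% of all probe sets passed. AT3G57010 rose by 2.09 ± 0.32, 257288_at by 1.83 ± 0.26 (0.92 with a pseudocount of 64), AT5G45950 by 0.91 ± 0.21 and AT5G15190 by 0.61 ± 0.13. AT4G33550 fell by 0.77 on the log2 scale, AT5G19875 by 0.66 and 262113_at by 0.84. The last did not pass without the extreme arrays (-0.63, adjusted p = 0.0731). AT5G15190 had 9534 to 27735 (median 17278) with kinetin and 6870 to 18334 (median 11524) without kinetin on the arrays with ABA. On the arrays without ABA it had 573 to 2553 (median 1123) with kinetin and 297 to 1180 (median 754) without kinetin. The kinetin effects were 0.57 ± 0.19 with ABA and 0.65 ± 0.19 without ABA, and neither passed separately. The effect with ABA passed without the extreme arrays (0.74, adjusted p = 0.0353), and that without ABA passed in the fit with a replicate block (0.65, adjusted p = 0.0491).

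**Figure D4:**
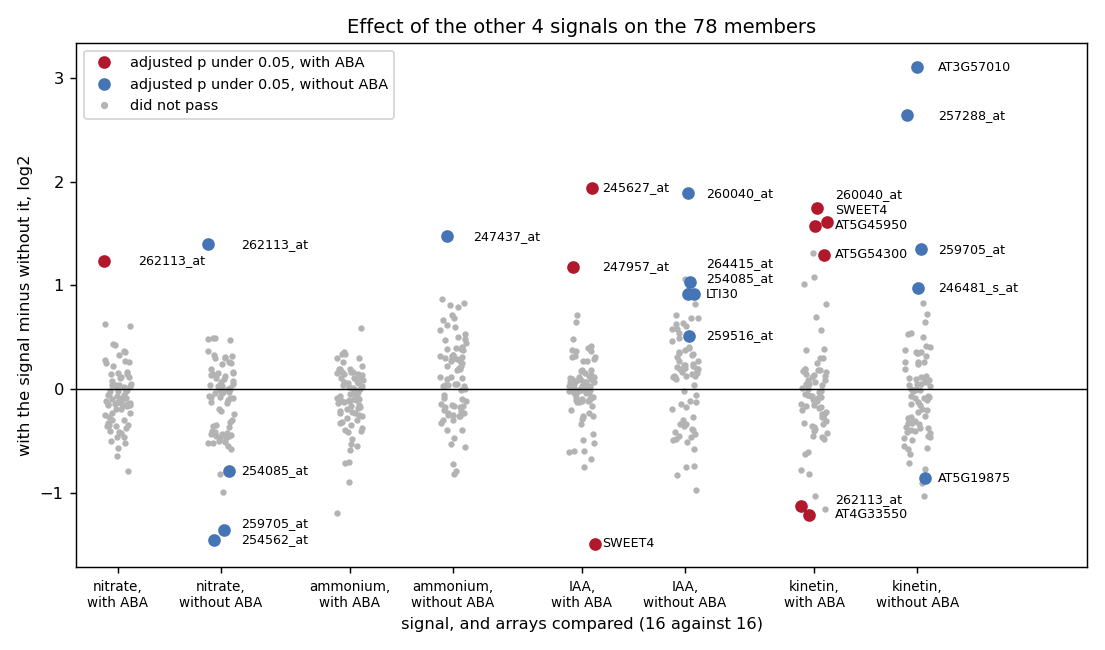
Each point is 1 of the 78 members, and its height is the log2 difference with a signal minus without it, for nitrate, ammonium, IAA and kinetin, among the 16 against 16 arrays with ABA (left of each pair) and without ABA (right). Coloured points passed at an adjusted p under 0.05 and are named, from 6 for kinetin with ABA to 0 for ammonium with ABA, and grey points did not pass.

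IAA, an auxin, changed 3 of 78 members among the arrays with ABA, where 1.03% of all probe sets passed. SWEET4 had 373 to 6359 (median 1497) with IAA and 1190 to 12277 (median 4062) without IAA, both with ABA, and fell by 1.49 on the log2 scale (SE 0.29, limma adjusted p = 0.002). The unnamed 245627_at had 58.7 to 762 (median 255) with IAA and 10.5 to 301 (median 51.6) without IAA, and rose by 1.94 ± 0.34 (adjusted p = 0.00051), or by 1.19 with a pseudocount of 64. The unnamed 247957_at rose by 1.18 ± 0.29 (adjusted p = 0.0342), but did not pass without the extreme arrays (0.90, adjusted p = 0.27), and leaving out 1 array ended its call for 18 of the 64 arrays.

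Among the arrays without ABA, IAA raised 5 of 78 members and lowered 0, where 1.57% of all probe sets passed. LTI30 had 1172 to 9919 (median 1754) with IAA and 651 to 1646 (median 1146) without IAA, and rose by 0.91 ± 0.19, or 1.88-fold (limma adjusted p = 0.00352). With ABA it had 17438 to 44844 with IAA and 18430 to 29100 without IAA, a difference of 0.07 ± 0.19, and the difference between the effects did not pass (-0.84 ± 0.27, adjusted p = 0.646). The unnamed 260040_at rose by 1.89 ± 0.37 (adjusted p = 0.00195), 254085_at by 0.91 ± 0.19 (adjusted p = 0.00305), 264415_at by 1.03 ± 0.27 (adjusted p = 0.0381) and 259516_at by 0.51 ± 0.13 (adjusted p = 0.022). A measure of RNA quality moved with IAA on these arrays. The log2 ratio of the 3′ to the 5′ actin control probe set was 4.72 ± 0.40 with IAA and 4.22 ± 0.45 without IAA (SD, n = 16 each; two-sided permutation test, adjusted p = 0.0302 over 18 comparisons). In a fit with this ratio as a covariate LTI30 and 260040_at still passed, and the calls ended for 254085_at (0.77, adjusted p = 0.0906), 264415_at (1.04, adjusted p = 0.137) and 259516_at (0.44, adjusted p = 0.204), against effects of 0.91, 1.03 and 0.51 without the covariate. The call of 264415_at also ended with a pseudocount of 64 (0.36), with quantile normalization (1.00) and without the extreme arrays (1.04), and for 16 of the 64 arrays when 1 was left out. That of 259516_at ended for 5 of them.

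Averaged over arrays with and without ABA, IAA changed 4 members, where 2.65% of all probe sets passed. LTI30 rose by 0.49 ± 0.13 (adjusted p = 0.0326), 245627_at by 1.04 ± 0.24 (adjusted p = 0.00656, and 0.60 with a pseudocount of 64) and 254085_at by 0.55 ± 0.13 (adjusted p = 0.0114), and 262826_at fell by 0.71 on the log2 scale (adjusted p = 0.00931). In the fit with the actin ratio these calls ended for LTI30 (0.49, adjusted p = 0.146), 254085_at (0.44, adjusted p = 0.19) and 262826_at (-0.62, adjusted p = 0.141). That of LTI30 also ended with quantile normalization (0.55, adjusted p = 0.0644) and for 16 of the 64 arrays when 1 was left out.

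Nitrate changed 1 of 78 members among the arrays with ABA, where 0.215% of all probe sets passed. This was the unnamed 262113_at, with 687 to 4807 (median 2593) with nitrate and 233 to 2489 (median 1203) without nitrate, which rose by 1.24 ± 0.26 (limma adjusted p = 0.0171). Among the arrays without ABA nitrate changed 4 members, where 0.646% of all probe sets passed. The same probe set rose there by 1.40 ± 0.26 (adjusted p = 0.0015, and 0.92 with a pseudocount of 64), with 93.1 to 479 (median 284) with nitrate and 23.1 to 210 (median 109) without nitrate. The unnamed 254562_at fell by 1.45 on the log2 scale (adjusted p = 0.000193, and -0.90 with a pseudocount of 64), with 17.4 to 233 (median 77.8) with nitrate and 43.6 to 441 (median 199) without nitrate. The unnamed 259705_at and 254085_at fell by 1.36 and 0.79 on the log2 scale, and neither passed in the fit with the actin ratio (-1.25 and -0.72, adjusted p = 0.122 and 0.0953) or without the extreme arrays (-1.25 and -0.68). With a pseudocount of 64 the effect of 259705_at was -0.77. Their calls ended for 24 and 15 of the 64 arrays when 1 was left out. Averaged over both kinds of array, where 0.884% of all probe sets passed, nitrate changed 262113_at (1.32 ± 0.18) and 254562_at (-0.97 ± 0.17). No named member passed with nitrate in any of these comparisons.

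Ammonium changed 0 of 78 members among the arrays with ABA in limma, where 0.00879% of all probe sets passed. At an unadjusted p under 0.05 there were 5 members and 1032 of all 22746 probe sets. AT4G33550 was nearest, with 4072 to 27223 (median 11462) with ammonium and 10401 to 34166 (median 21643) without ammonium, a difference of -0.72 ± 0.14 (adjusted p = 0.0834). Averaged over arrays with and without ABA, where 0.506% of all probe sets passed, AT4G33550 fell by 0.48 on the log2 scale (SE 0.10, adjusted p = 0.011) and was the only member that passed. Among the arrays without ABA the unnamed 247437_at rose by 1.47 ± 0.32 (adjusted p = 0.0249), where 0.334% of all probe sets passed, and its call was lost with a pseudocount of 64 (0.84, adjusted p = 0.0637) and for 11 of the 64 arrays when 1 was left out. It had 64.2 to 419 (median 193) with ammonium and 20.9 to 233 (median 53.1) without ammonium.

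Whether ABA changed the effect of another signal was tested directly. For nitrate, 0 of 78 members passed in limma, where 0% of all probe sets passed. At an unadjusted p under 0.05 there were 5 members and 925 of all 22746 probe sets. For ammonium, 0 members passed, where 0% of all probe sets passed, and the unadjusted counts were 9 members and 697 of all probe sets. For kinetin, 0 members passed, where 0.00879% of all probe sets passed, and the unadjusted counts were 14 members and 999 of all probe sets. For IAA, the unadjusted counts were 12 members and 1281 of all probe sets. After adjustment 1 member passed for IAA, where 0.0396% of all probe sets passed. This was the unnamed 260040_at, whose IAA effect with ABA minus that without ABA was -2.64 ± 0.53 (adjusted p = 0.0442). The call ended without the extreme arrays (-1.96, adjusted p = 0.356), in the fit with the actin ratio (-2.65, adjusted p = 0.0653), and for 37 of the 64 arrays when 1 was left out. It had 536 to 29881 (median 6457) with IAA and 2527 to 42929 (median 11303) without IAA on the arrays with ABA. On the arrays without ABA it had 234 to 7294 (median 1204) with IAA and 67.0 to 957 (median 363) without IAA.

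SWEET4 came nearest among the named members, which was seen after its values were known. Its kinetin effect was 1.61 with ABA and -0.46 ± 0.29 without ABA, a difference of 2.08 ± 0.41 (limma adjusted p = 0.0597). The difference passed with 6 of 7 other settings of the processing, with adjusted p-values from 0.00783 to 0.0492. It was 2.27 (adjusted p = 0.0561) without the extreme arrays, and passed in only 6 of the 64 fits that left out 1 array. The IAA effect of SWEET4 was -1.49 with ABA and 0.28 ± 0.29 without ABA, a difference of -1.76 ± 0.41 (adjusted p = 0.131). That difference passed with a pseudocount of 64 (adjusted p = 0.027) and with quantile normalization (adjusted p = 0.043). Of the 64 fits that left out 1 array, it passed in 3. By hormone, with ABA, SWEET4 had a mean log2 level of 11.78 ± 0.96 with IAA and kinetin, 9.51 ± 0.82 with IAA, 12.61 ± 0.94 with kinetin and 11.65 ± 0.76 with neither (SD, n = 8 arrays each). Without ABA the means were 7.10, 7.57, 6.83 and 7.28 in the same order. For AT4G33550 the means with ABA were 13.39 with IAA and kinetin, 14.49 with IAA, 13.31 with kinetin and 14.63 with neither, and those without ABA were 8.63, 8.66, 8.67 and 9.29. The difference between its kinetin effects with and without ABA, -0.89 ± 0.20, did not pass (adjusted p = 0.182).

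**Figure D5:**
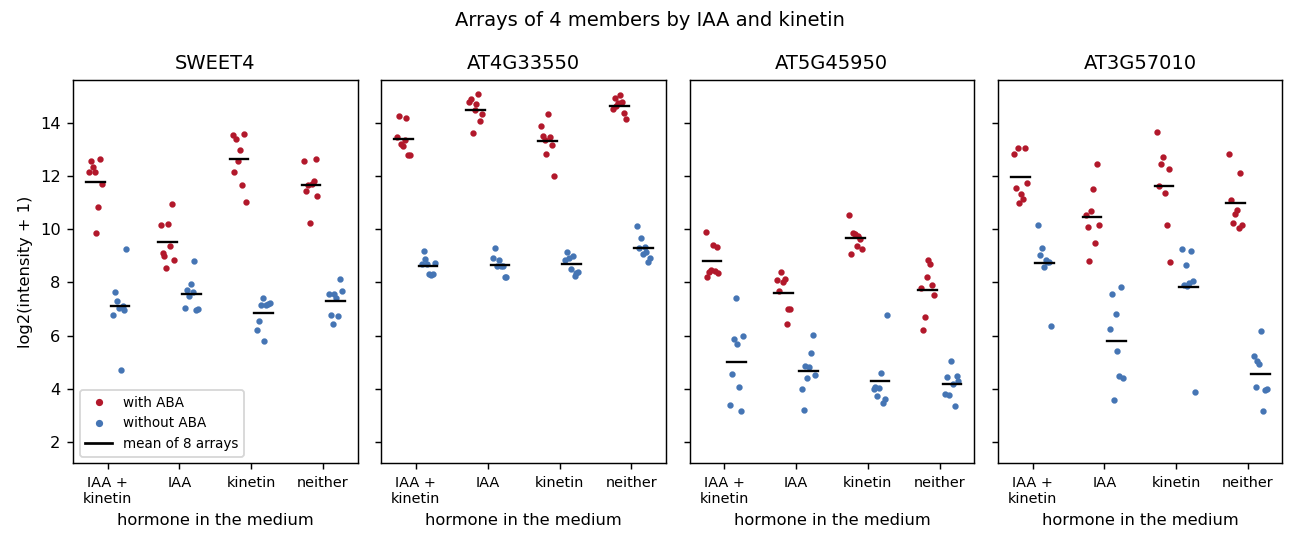
Points are single arrays (log2 of intensity + 1) of SWEET4, AT4G33550, AT5G45950 and AT3G57010, with ABA in red and without ABA in blue, by IAA and kinetin in the medium, and black bars are means of 8 arrays that differ in nitrate and ammonium. With ABA, SWEET4 has its lowest mean with IAA alone (9.51) and AT4G33550 its 2 lowest means with kinetin (13.31 and 13.39).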

How the data were processed

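RNA of Arabidopsis roots was measured on 64 Affymetrix arrays of 22810 probe sets, extracted with Trizol and labelled with biotin per the labels' protocols. The deposited values are linear intensities, 1 per probe set and array, and as deposited the mean intensity of each array is 500 when the lowest and highest 2% of values are left out. Which software produced them, and with what background correction, is not given in the sources used here. No shared distribution was imposed, and array medians ran from 103 to 303. The number of arrays limits the precision.

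The 64 control probe sets were set aside. Values were analysed as log2(intensity + 1), which understates fold changes of dim probe sets, with no filter on low values. A mean for each of the 32 groups was fitted with limma 3.58.1 in R 4.3.3, with Benjamini-Hochberg adjustment over 22746 probe sets within each comparison and a threshold of 0.05. Effects are log2 differences ± SE. The scripts were checked on simulated data, with effects of 1 and 2 on the log2 scale added to 50 probe sets each. For kinetin with ABA, 44% and 88% of these were recovered, and for the kinetin by ABA interaction 18% and 66%. A count of 0 members for an interaction therefore does not show that effects of such sizes are absent. The members and the gene lists were chosen with earlier results of these data known. The 4 averaged effects, the neighbouring genes and the role groups were added after seeing the data. Named genes are the 24 members of greatest ABA difference among those with 1 gene, members on a list, up to 4 rises and 4 falls per comparison, and 3 genes on each side of the threshold. Unnamed probe sets, and a few genes outside this rule, were chosen after their values were seen.

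Gene names came from the platform annotation, where 13513 probe sets have 1 gene, 503 have several and 8730 have none, and from the RefSeq table of assembly TAIR10.1, where all 35 named members were found. Searches of promoters and proteins were not run, and no sequence was used here. Whether equal replicate numbers pair the samples was checked over 496 pairs of groups: their deviations correlated at -0.26 to 0.42 (median 0.05), above 0.1 in 164 pairs. These values do not settle whether the numbers pair the samples. The main fit used no block. Alternatives were a pseudocount of 64, no probe sets of the dimmest 40%, quantile normalization, the array median or the actin ratio as a covariate, leaving out the 6 extreme arrays, a replicate block, and leaving out each array.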

Additional observations from a re-analysis of the deposited data

Results flagged for a closer look

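For the unnamed probe set 260040_at the effect of IAA differed between roots with and without ABA by the interaction test (-2.64 ± 0.53 on the log2 scale, limma adjusted p = 0.0442). IAA gave -0.75 ± 0.37 with ABA and 1.89 ± 0.37 without ABA. The call ended without the 6 extreme arrays (-1.96, adjusted p = 0.356), with the actin ratio as a covariate (-2.65, adjusted p = 0.0653) and for 37 of the 64 arrays when 1 was left out.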

How the results depend on the processing

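No direction turned under any alternative for a call made here. With a pseudocount of 64 the rule took 46 probe sets, and the ABA difference of 9 named members was smaller by over 1.5 times on the log2 scale (AT3G17520, AT2G25625, AT5G59330, AT3G15670, AT5G45950, AT5G28520, AT5G54300, AT5G65990 and AT1G52560, at 2.99, 3.09, 3.28, 2.30, 2.23, 2.50, 1.73, 2.20 and 1.70). The difference of 17 of the 35 named members moved by at least the SD of their arrays with ABA. Among these were AT4G31830 (5.26), AT1G16850 (6.16) and AT5G66780 (4.63). With that pseudocount 10 members passed for kinetin with ABA, 13 for kinetin averaged, 7 for IAA averaged, 4 for the kinetin by ABA interaction, 2 for the IAA by ABA interaction, 1 for ammonium with ABA (AT4G33550) and 0 for ammonium without ABA. Without the dimmest 40% of probe sets 1 member passed for IAA with ABA, 1 for ammonium with ABA and 1 (SWEET4) for the kinetin interaction. Quantile normalization gave 1 for ammonium with ABA, 2 for the IAA interaction and 1 for the kinetin interaction. The array median as a covariate gave 1 for ammonium with ABA, 1 for the kinetin interaction and 9 for IAA averaged. The actin ratio as a covariate gave 2 for nitrate without ABA, 2 for IAA without ABA, 2 for IAA averaged, 0 for the IAA interaction and 1 for the kinetin interaction. Without the 6 extreme arrays 2 passed for nitrate without ABA, 2 for kinetin without ABA, 2 for ammonium averaged and 0 for the IAA interaction. For counts that moved under these settings the cause was not tested, except that the filter left fewer probe sets to adjust over and removed dim members.

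With the replicate block 1 member (SWEET4, adjusted p = 0.0443) passed for the kinetin interaction, and the other counts stayed within 1.5 times. When each array was left out in turn the rule took 75 to 81 probe sets. The members that passed numbered 0 to 1 for ammonium with ABA, 2 to 5 for nitrate without ABA, 0 to 1 for ammonium without ABA, 3 to 6 for IAA without ABA, 2 to 6 for kinetin without ABA, 0 to 2 for the IAA interaction, 0 to 1 for the kinetin interaction and 3 to 7 for IAA averaged. With ABA they numbered 1 for nitrate, 2 to 3 for IAA and 5 to 7 for kinetin.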
